A study of Mus musculus with 30 samples.

Results

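The 9 CXC chemokine genes described here (*Cxcl1*, *Cxcl2*, *Cxcl3*, *Cxcl9*, *Cxcl10*, *Cxcl13*, *Cxcl14*, *Cxcl16* and *Pf4*) were chosen by name from the 45317 genes of the count tables, and all 9 passed the filter on low counts that left 11566 genes for testing. They were followed over 8 sorted populations of glioma-bearing mice. In Ly6Chigh blood monocytes 5 members had no count and the others were low. In monocytes and macrophages sorted from the brain every member had counts in all 22 replicates except *Cxcl3*, which had them in 20. Per length of annotated exon *Cxcl10* and *Cxcl16* gave the largest mean shares, though not in mouse 26, and this ranking depends on the lengths used. Of the mice, 1 animal, number 26, held the highest *Cxcl1*, *Cxcl2*, *Cxcl3* and *Pf4* in each of the 6 brain populations.

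All mice were C57BL6.CCR2RFP/WT, heterozygous for an allele in which the red fluorescent protein RFP takes the place of *Ccr2*, and were 12 to 18 weeks old. Every mouse carried a GL261 glioma, a mouse glioma line grown in the brain from cells that express a palmitoylated, membrane-bound GFP, so there was no tumor-free group. GFPpos cells had taken up tumor-derived GFP membrane and GFPneg cells had not. Cardiac blood gave Ly6Chigh (inflammatory) and Ly6Clow (patrolling) monocytes, sorted as CD45high, CD115high and CD11clow. Brain tissue, dissociated with enzymes at 37 °C, gave CD11bhigh CD45high cells, which were divided into glioma monocytes (by Ly6C and F4/80), CCR2high macrophages and CCR2low macrophages, the last 2 by RFP, each as GFPneg and GFPpos. Blood monocytes came from mice 22, 23 and 24 (n = 3 per population), glioma monocytes from mice 22, 24 and 26 (n = 3) and macrophages from all 4 mice (n = 4). The labels name the brain as the tissue of every sample, the blood samples included, and give no sex for the mice. The paper states 2 male and 2 female mice, without naming which.

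Chemokines are small secreted proteins that guide leukocytes through G protein-coupled receptors, and the CXC family is named for the single residue between its first pair of cysteines. CXCL1, CXCL2 and CXCL3 carry an ELR motif and attract neutrophils through CXCR2; their genes are known targets of NF-κB. CXCL9 and CXCL10 are induced by interferons and attract activated T and NK cells through CXCR3. CXCL13 directs B cells through CXCR5, CXCL16 is a membrane-anchored ligand of CXCR6 that is shed by ADAM10 and ADAM17, CXCL14 is an epithelial and tissue chemokine, and PF4 (CXCL4) is best known from platelet granules and is also made by macrophages.

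The members of the neutrophil-attracting and interferon-induced groups lie near each other. In the GENCODE vM21 annotation of GRCm38, *Pf4* (chromosome 5, 90772435 to 90773383, plus strand), *Cxcl3* (90786103 to 90789600), *Cxcl1* (90891241 to 90893115) and *Cxcl2* (90903871 to 90905938) lie in that order on the same strand. *Cxcl9* (chromosome 5, 92321347 to 92328079, minus strand) and *Cxcl10* (92346638 to 92348889) lie farther along on the other strand, with *Cxcl13* beyond them (95956951 to 95961068, plus strand). *Cxcl14* (chromosome 13, 56288643 to 56296551, minus strand) and *Cxcl16* (chromosome 11, 70453983 to 70459984, minus strand) are on other chromosomes. The exons of *Cxcl10* overlap those of *Art3* over 133 bases and the exons of *Cxcl16* overlap those of *Zmynd15* over 552 bases, so reads there cannot be assigned without strand. *Cxcl2* and *Cxcl3* share 4.57% and 2.78% of their 75-base transcript stretches with each other. These are shares of the sequence, and the share of reads affected was not measured.

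The promoters of 4 members are shown, which are those in which the NF-κB consensus was found. RefSeq entries (GRCm38.p6) were found for 8 of the 9 members, *Cxcl16* being the exception. In the 250 bases upstream of the start, searched on both strands, the NF-κB consensus was found in 4 of the 8 (*Cxcl1*, *Cxcl2*, *Cxcl3* and *Cxcl10*), against 7.25% of all 32851 promoters. The core of the interferon-stimulated response element was found in *Cxcl10* and *Cxcl14*, against 2.98% of all promoters. The core of the gamma-activated sequence, TTCNNNGAA, was found in *Cxcl14* alone, against 7.02%. Bases -240 to -41 relative to the start are printed 5′ to 3′ on the strand of each gene, with NF-κB consensus matches in capitals and, in *Cxcl10*, the interferon-stimulated element in capitals as the first of the 3 runs:
Cxcl1 (chr5:90891005-90891204, plus strand): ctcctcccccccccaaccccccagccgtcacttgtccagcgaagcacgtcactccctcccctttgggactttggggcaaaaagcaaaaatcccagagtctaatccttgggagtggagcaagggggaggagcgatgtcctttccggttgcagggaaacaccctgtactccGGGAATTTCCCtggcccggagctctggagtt
Cxcl2 (chr5:90903659-90903858, plus strand): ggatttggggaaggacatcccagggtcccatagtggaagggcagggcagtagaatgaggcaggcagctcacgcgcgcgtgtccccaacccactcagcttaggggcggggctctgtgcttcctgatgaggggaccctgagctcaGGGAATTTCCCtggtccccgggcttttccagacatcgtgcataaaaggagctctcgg
Cxcl3 (chr5:90785861-90786060, plus strand): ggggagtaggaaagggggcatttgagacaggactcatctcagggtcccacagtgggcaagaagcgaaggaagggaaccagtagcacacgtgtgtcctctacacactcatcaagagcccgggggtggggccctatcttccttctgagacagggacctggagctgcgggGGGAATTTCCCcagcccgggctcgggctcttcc
Cxcl10 (chr5:92348930-92349129, minus strand): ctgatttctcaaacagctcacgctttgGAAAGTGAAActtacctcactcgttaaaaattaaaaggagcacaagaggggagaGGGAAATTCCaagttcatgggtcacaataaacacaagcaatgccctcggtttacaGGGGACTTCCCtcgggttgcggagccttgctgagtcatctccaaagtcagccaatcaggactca

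In *Cxcl1*, *Cxcl2* and *Cxcl3* the matched letters were the same, GGGAATTTCC, starting 71, 97 and 73 bases upstream of the start, and the match on the other strand overlaps it by all but 1 base. In *Cxcl10* matches began 159, 104 and 103 bases upstream, the last 2 overlapping, and the interferon-stimulated element began 213 bases upstream. A match describes the letters and is not evidence of binding in these cells. A window without a match, as in *Cxcl9*, *Cxcl13* and *Pf4* for the 3 motifs searched, says only that these letters are not in it.

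Levels are given as normalized read counts, in CPM, which scale each gene's count to the size of its library after TMM normalization. Depth ran from 1553616 to 5689644 gene counts per replicate. Calls are those of edgeR's quasi-likelihood test in 1 fit over all 8 populations, with a Benjamini-Hochberg adjusted p under 0.05 over the 11566 genes. Libraries were made from 500 pg of RNA. A pair made from 1 sample, GFPpos glioma monocytes of mouse 22, held 272 and 0 counts of *Cxcl1*, 1548 and 1015 of *Cxcl2*, and 13 and 0 of *Cxcl3*, at 4008623 and 1681021 gene counts. These libraries also differed in quality, with 5 reads reached in 11777 and 6969 genes and spike-in counts of 1.29% and 8.68%. The pair therefore does not show the variability at that input alone. Its libraries were summed. The Ly6Clow replicate of mouse 23 held 13.3% spike-in counts, the highest of all replicates. It reached 5 reads in 6475 genes, against 9512 and 10882 in the Ly6Clow replicates of mice 22 and 24. Its counts of 0, as for *Pf4*, *Cxcl9*, *Cxcl10* and *Cxcl16*, are therefore less certain. It came from a separate count table, as did the deeper library of the pair. Another library of the same population and mouse was left out, since it reached 5 reads in only 3460 genes, under the 6000 of the quality rule. A list of monocyte and macrophage genes summed to 8495 to 39767 CPM over all replicates. In bulk samples fewer cells that express a gene and less RNA per cell cannot be told apart.

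**Figure D1:**
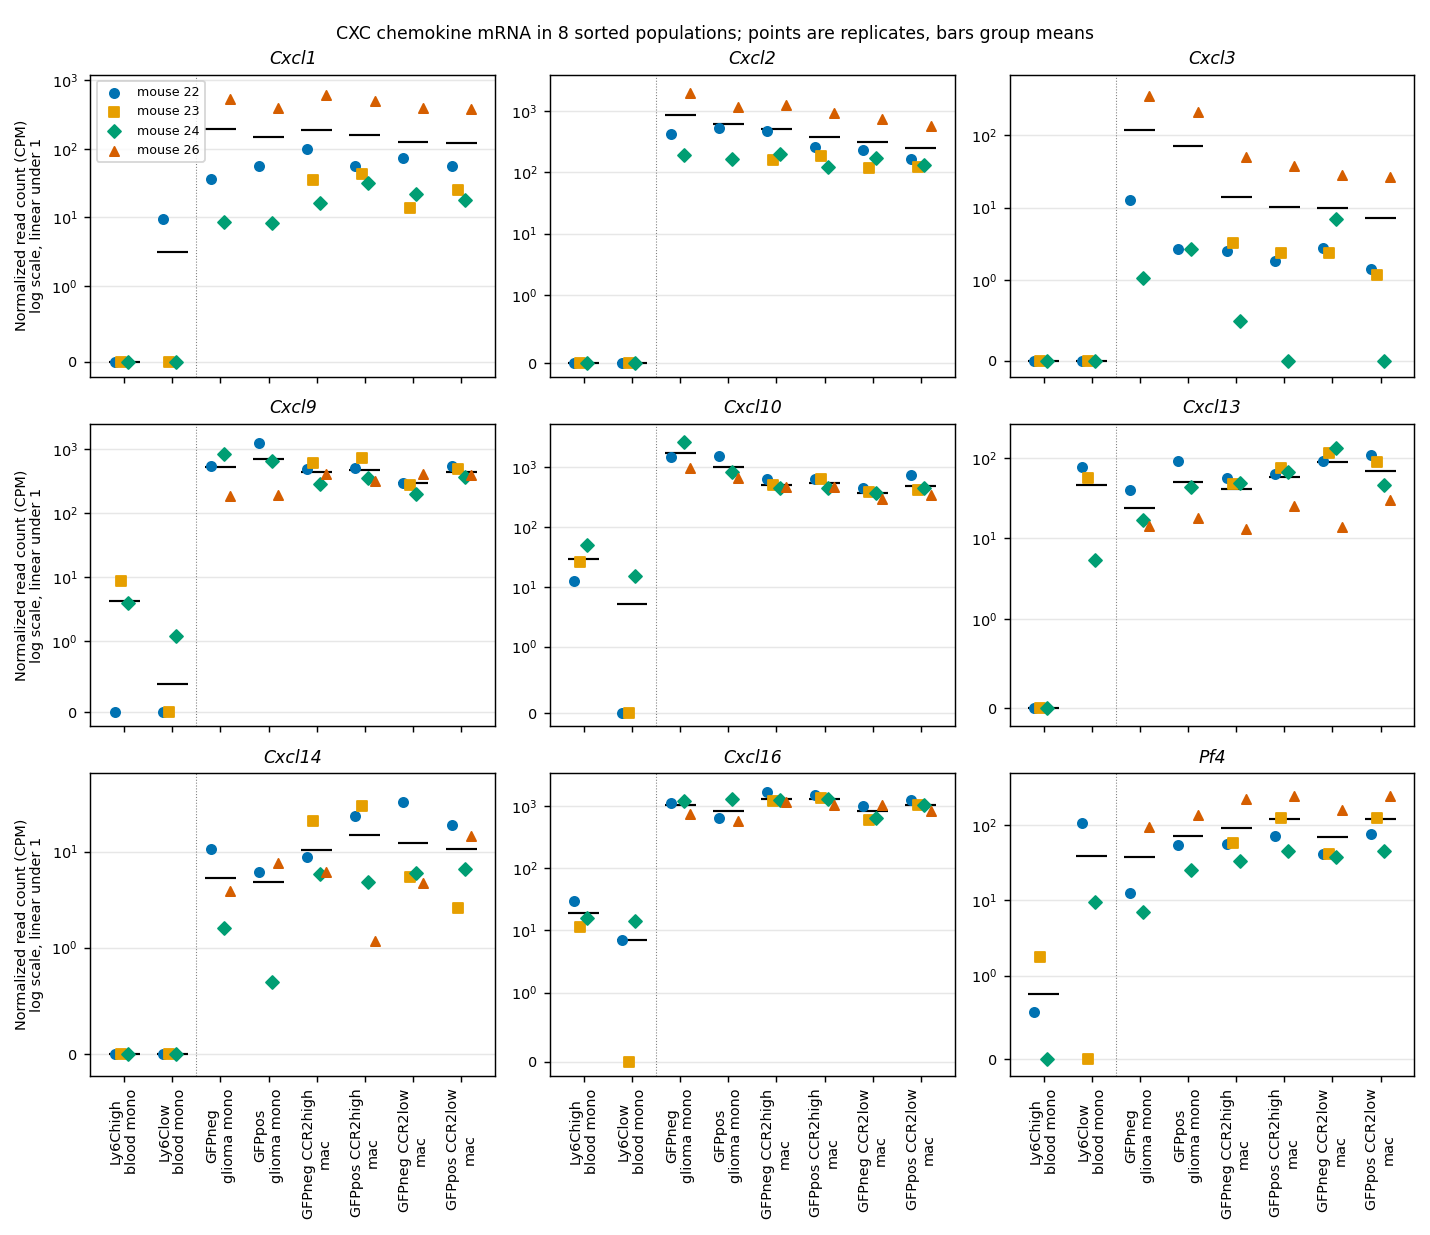
Normalized read count (CPM, log scale that is linear under 1) of the 9 CXC chemokines in each replicate of the 8 populations, with color and symbol giving the mouse and black bars the group means. Blood replicates, left of the dotted line, were at or near 0 for most members, and the triangles of mouse 26 stood above the other replicates of each brain population for *Cxcl1*, *Cxcl2*, *Cxcl3* and *Pf4* and below them for *Cxcl13*.

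Ly6Chigh and Ly6Clow monocytes were compared first, as the populations of the blood. *Cxcl13* and *Pf4* were lower in Ly6Chigh monocytes (2 of 9 members called, both lower; over all genes 5.61% were called and 3.65% were called lower). *Cxcl2*, *Cxcl3* and *Cxcl14* had 0 counts in all 6 blood replicates, and *Cxcl1* had counts in 1 of them.

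*Cxcl13* was at 76, 56.7 and 5.33 CPM in the Ly6Clow replicates of mice 22, 23 and 24 and at 0 in all 3 Ly6Chigh replicates. The groups did not overlap (1 of 9 members was lower in this way, against 7.23% of all genes). With no count in Ly6Chigh monocytes, *Cxcl13* could only be lower there or absent from both. *Cxcl13* was at least 33.9-fold lower in Ly6Chigh monocytes, taking 3 counts per library as the limit for a count of 0 (edgeR adjusted p = 0.000416; lowest bound when any replicate was left out, 22.9-fold). Fitting these populations alone ended the call (adjusted p = 0.325).

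*Pf4* was at 108, 0 and 9.47 CPM in the Ly6Clow replicates of mice 22, 23 and 24 and at 0.562, 1.76 and 0 CPM in the Ly6Chigh ones. The groups overlapped, because mouse 23 had no *Pf4* count in Ly6Clow cells. The summed counts were 260 in Ly6Clow against 4 in Ly6Chigh monocytes, a ratio of 66.4 (exact 95% counting interval 25.6 to 246; edgeR adjusted p = 0.0303). The Ly6Clow replicate of mouse 22 held 228 of the 260 counts, and without it the ratio was 11.1 (3.93 to 43.1). Without the Ly6Chigh replicate of mouse 24 it was 28.01 (10.8 to 104), and without that of mouse 23, which left 1 count, 211 (37.5 to 8362). The call was lost without the Ly6Clow replicate of mouse 22, without any of the 3 Ly6Chigh replicates, with spike-in scaling and with a filter of 1 count, and the highest adjusted p over all alternatives was 0.281. *Ppbp*, another chemokine of platelet granules, ran in the same order over the Ly6Clow replicates, at 27.4, 0 and 1.78 CPM in mice 22, 23 and 24. The summed level of 9 platelet genes, *Ppbp* included, was 0 to 58.5 CPM in Ly6Clow and 3.76 to 7.3 CPM in Ly6Chigh monocytes. The part of platelet RNA in the *Pf4* difference was not tested.

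Other cell-type lists differed between the blood populations as well. All 7 T and NK cell genes were called lower in Ly6Chigh monocytes, where their sum was 16.4 to 161 CPM against 792 to 1304 CPM in Ly6Clow monocytes. Of 9 tested serous-cavity macrophage genes 5 were called lower, with sums of 100.1 to 109.5 CPM in Ly6Chigh and 151 to 1102 CPM in Ly6Clow monocytes. The dendritic cell list, with 1 of 6 genes called lower, summed to 100.2 to 219 against 578 to 1895 CPM, the B and plasma cell list (0 of 6 called by edgeR) to 60.8 to 112 against 244 to 450 CPM, and the endothelial and stromal list (1 of 7 called lower) to 6.27 to 19.9 against 44.99 to 91.4 CPM. The summed level of the border-associated macrophage list ran the other way, at 4092 to 5087 CPM in Ly6Chigh and 122 to 1097 CPM in Ly6Clow monocytes. Its median log2 fold change did not (-0.75, with genes absent from 1 population at their bound), and 0 of 6 genes were called by edgeR. The part of these lists in the *Cxcl13* and *Pf4* differences was not tested.

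The interferon-induced members ran the other way in blood without reaching the threshold. *Cxcl10* was at 12.4, 25.8 and 50.2 CPM in Ly6Chigh and 0, 0 and 15.4 CPM in Ly6Clow replicates of mice 22, 23 and 24, and within each mouse the Ly6Chigh value was the higher one. Its log2 fold change was 2.42 ± 0.74 (SE; edgeR adjusted p = 0.0523), and with the mouse as a replicate block it was called (adjusted p = 0.0299; 7.97% of all genes were called with the block). *Cxcl9* was at 0, 8.79 and 3.97 CPM against 0, 0 and 1.18 CPM (log2 fold change 3.02 ± 1.05, edgeR adjusted p = 0.0888). *Cxcl16* was at 29.2, 11.1 and 15.7 CPM against 7.08, 0 and 13.9 CPM (log2 fold change 1.37 ± 0.57, edgeR adjusted p = 0.151). *Cxcl1* was counted only in the Ly6Clow replicate of mouse 22, at 9.43 CPM, and its adjusted p of 0.451 became 0.0379 with the mouse as a replicate block. Without the Ly6Clow replicate of mouse 24, which held the only Ly6Clow counts of *Cxcl9* and *Cxcl10*, 5 members were called (*Cxcl9*, *Cxcl10* and *Cxcl16* higher, *Cxcl13* and *Pf4* lower), and the number of all called genes went from 649 to 2444.

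GFPneg cells of the brain were then compared with Ly6Chigh blood monocytes, to ask what changed once cells were in the glioma-bearing brain. In glioma monocytes all 9 members were called higher (over all genes 13.8% were called and 11.1% higher). In CCR2high macrophages 8 of 9 were called higher (over all genes 17.8% and 12.7%) and in CCR2low macrophages 8 of 9 (20.2% and 14.1%), *Cxcl3* being the exception in both. DESeq2 called all 9 in each (18.2%, 23.7% and 25.8% of all genes). All 9 members had no overlap between the brain and the Ly6Chigh replicates in each of the 3 comparisons, against 21.6%, 21.8% and 21.1% of all genes. *Cxcl1*, *Cxcl2*, *Cxcl3*, *Cxcl13* and *Cxcl14* had no count in any Ly6Chigh replicate and passed the filter through other populations. Against Ly6Chigh monocytes they could therefore only be higher, so for them these counts and the shares over all genes are not a like comparison. The 3 comparisons share their Ly6Chigh replicates and are not independent. Brain cells went through enzymatic dissociation at 37 °C and blood cells did not, so tissue and preparation cannot be told apart, and mouse 26 gave no blood sample.

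Of the neutrophil-attracting members, *Cxcl2* gave the largest mean share per length of annotated exon. It was at 423, 192 and 1959 CPM in GFPneg glioma monocytes of mice 22, 24 and 26, at 479, 156, 196 and 1233 CPM in GFPneg CCR2high macrophages of mice 22, 23, 24 and 26, and at 231, 117, 169.7 and 739.9 CPM in GFPneg CCR2low macrophages of the same mice. Every one of these lay far above the Ly6Chigh replicates, which were at 0, and mouse 26 was the highest in each population. *Cxcl2* was thus at least 632-fold, 381-fold and 232-fold higher than in Ly6Chigh monocytes (edgeR adjusted p = 3.54e-05, 4.46e-05 and 7.41e-05). The lowest bounds, without the replicate of mouse 26, were 227-fold, 204-fold and 127-fold. *Cxcl2* kept its call in all 3 comparisons under every alternative in which it was tested.

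*Cxcl1* was at 36.6, 8.57 and 536 CPM in GFPneg glioma monocytes of mice 22, 24 and 26, at 100.3, 34.7, 16.2 and 611 CPM in CCR2high and 72.7, 13.7, 21.7 and 399.8 CPM in CCR2low macrophages of mice 22, 23, 24 and 26. Mouse 26 was again the highest, and the other mice were at 8.17 to 100.3 CPM in the brain. The lower bounds against Ly6Chigh monocytes were 143-fold, 140.4-fold and 93.6-fold (edgeR adjusted p = 0.0163, 0.0121 and 0.0158) and fell to 16.7-fold, 37.1-fold and 26.6-fold without mouse 26. With the spike-ins as the scale or with a filter of 1 count all 3 calls were lost. The call in glioma monocytes was also lost without the replicate of mouse 26 (adjusted p = 0.114) or without any of the 3 Ly6Chigh replicates (0.0596 to 0.0833), and when only the compared populations were fitted (0.145). With mouse 26 left out of every population all 3 calls were kept (adjusted p = 0.00932, 0.00202 and 0.0028). The call in CCR2high macrophages was lost without the Ly6Chigh replicate of mouse 24 (0.0671), and the call in CCR2low macrophages without any of the 3 Ly6Chigh replicates (0.0538 to 0.0788).

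*Cxcl3* was at 12.5, 1.07 and 341 CPM in GFPneg glioma monocytes of mice 22, 24 and 26, at 2.52, 3.21, 0.49 and 49.9 CPM in CCR2high and 2.75, 2.36, 6.94 and 28 CPM in CCR2low macrophages of mice 22, 23, 24 and 26. The replicate of mouse 26 set most of each mean. It was at least 87.1-fold higher in glioma monocytes than in Ly6Chigh monocytes (edgeR adjusted p = 0.035), and only at least 5.02-fold higher without that replicate of mouse 26, when the call was lost. With mouse 26 left out of every population the call was kept (adjusted p = 0.0321) and *Cxcl3* was also called in CCR2low macrophages (adjusted p = 0.0302, against 0.0651 in CCR2high macrophages). The call in glioma monocytes was also lost without any of the 3 Ly6Chigh replicates, with spike-in scaling and with a filter of 1 count, and the highest adjusted p over the alternatives was 0.23. In CCR2high and CCR2low macrophages the adjusted p was 0.113 and 0.142, and with the mouse as a replicate block, where 21.2% and 23.1% of all genes were called, it was 0.035 and 0.0103.

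Of the interferon-induced members, *Cxcl10* was at 1499, 2659 and 968 CPM in GFPneg glioma monocytes of mice 22, 24 and 26, at 629, 497, 456 and 467 CPM in CCR2high and 443, 390.5, 370.0 and 296 CPM in CCR2low macrophages of mice 22, 23, 24 and 26. The macrophage replicates lay close together, and those of the glioma monocytes were higher and wider apart. Against the mean of 29.4 ± 19.2 (SD, n = 3) CPM in Ly6Chigh monocytes this was 58.1-fold, 17.4-fold and 12.7-fold higher (log2 fold change 5.83 ± 0.80, 4.09 ± 0.72 and 3.64 ± 0.70 SE; edgeR adjusted p = 8.44e-06, 0.000161 and 0.000424). The macrophage calls were lost with spike-in scaling (adjusted p = 0.0776 and 0.134).

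*Cxcl9* was at 545, 842 and 183 CPM in GFPneg glioma monocytes, 491, 591, 278 and 407 CPM in CCR2high and 298, 277, 199 and 401 CPM in CCR2low macrophages, in the same order of mice. Its replicates overlapped between the 3 brain populations. It was 123-fold, 104-fold and 69.1-fold higher than in Ly6Chigh monocytes (log2 fold change 6.95 ± 0.80, 6.71 ± 0.79 and 6.12 ± 0.77 SE; edgeR adjusted p = 7.06e-07, 7.22e-07 and 1.79e-06).

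*Cxcl16* was the most even member. It was at 1093, 1196 and 739 CPM in GFPneg glioma monocytes, 1649.9, 1181, 1219.9 and 1155 CPM in CCR2high and 994, 591, 630.4 and 1038 CPM in CCR2low macrophages, in the same order of mice. Over all 22 brain replicates its highest value was 2.87 times its lowest, the narrowest range of the 9 members. It was 54.1-fold, 69.7-fold and 43.6-fold higher than the 18.7 ± 9.41 (SD, n = 3) CPM of Ly6Chigh monocytes (log2 fold change 5.76 ± 0.62, 6.13 ± 0.62 and 5.45 ± 0.60 SE; edgeR adjusted p = 2.08e-07, 6.36e-08 and 2.17e-07). Its sheddases *Adam10* and *Adam17* were called in none of the 4 comparisons described so far (0 of 2 by edgeR; *Adam10* alone had an unadjusted p under 0.05, in Ly6Chigh against Ly6Clow monocytes).

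*Cxcl13* was at 40.1, 17.1 and 14.2 CPM in GFPneg glioma monocytes, 56.1, 47.7, 49 and 13.3 CPM in CCR2high and 90.3, 116, 132 and 13.7 CPM in CCR2low macrophages, in the same order of mice. Mouse 26 was the lowest in each population. It was at least 17.6-fold, 30.6-fold and 64.8-fold higher than in Ly6Chigh monocytes (edgeR adjusted p = 0.000285, 5.83e-05 and 1.3e-05). The lowest bounds when any replicate was left out were 11.5-fold, without the glioma monocytes of mouse 22, and 24.1-fold and 51.1-fold, without the Ly6Chigh replicate of mouse 24. The Ly6Clow monocytes of the blood, at 5.33 to 76 CPM, overlapped with the brain populations, at 13.3 to 132 CPM.

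*Pf4* was at 12.5, 6.96 and 94.8 CPM in GFPneg glioma monocytes, 56.8, 57.6, 32.8 and 220.2 CPM in CCR2high and 40.7, 41.1, 37.9 and 158 CPM in CCR2low macrophages, in the same order of mice. Mouse 26 was the highest in each population. The summed counts of 185, 1407 and 629 against 4 in Ly6Chigh monocytes gave ratios of 70.7 (exact 95% counting interval 27.1 to 262), 224 (87.3 to 823) and 129 (49.98 to 473) (edgeR adjusted p = 0.0149, 0.00234 and 0.00338). Without the replicate of mouse 26 in each population the ratios were 20.3 (7.33 to 78.5), 107 (41.3 to 393) and 83.0 (32.1 to 307), and without the Ly6Chigh replicate of mouse 24 they were 29.8 (11.4 to 111), 94.5 (36.8 to 347) and 54.2 (21.1 to 199.6). Without the Ly6Chigh replicate of mouse 23, which held 3 of the 4 counts, they were 224 (39.8 to 8911), 711 (127 to 28109) and 408 (73.0 to 16150.1). Without mouse 26 the call in glioma monocytes was lost (adjusted p = 0.106) and those in macrophages were kept. That call was also lost without the Ly6Chigh replicate of mouse 22 or 24 and with a filter of 1 count, with a highest adjusted p of 0.152. In the 16 brain replicates of mice 22, 23 and 24 *Pf4* was at 6.96 to 124 CPM while the platelet chemokine *Ppbp* had 0 counts in 15 of them and 2 counts in the other. The whole platelet list, *Ppbp* included, summed to 1.65 to 15.7 CPM in these replicates. The part of platelet RNA in the *Pf4* levels of the brain was not tested.

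*Cxcl14* was at 0.681 to 32.5 CPM in the brain replicates and had 0 counts in blood. It was at least 3.93-fold, 7.65-fold and 8.97-fold higher than in Ly6Chigh monocytes (edgeR adjusted p = 0.0127, 0.00293 and 0.00218). The lowest bounds when any replicate was left out were 2.02-fold, 5.13-fold and 3.98-fold, without the replicate of mouse 22, 23 and 22 of the brain population. The call in glioma monocytes was lost without the replicate of mouse 22, without the Ly6Chigh replicate of mouse 24 and with spike-in scaling, with a highest adjusted p of 0.077. Each brain replicate held 1 to 147 counts of *Cxcl14*, so its levels are imprecise.

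Of the 6 other CXC ligands, 3 had counts enough for a test. *Cxcl11*, the gene of the third ligand of CXCR3, is annotated in GENCODE as a polymorphic pseudogene and shares 1582 exon bases with *Gm2673*. Its RNA therefore does not show that a functional ligand was made. This RNA was at 0 in blood, at 37.4 to 143 CPM in GFPneg glioma monocytes, and called higher in all 3 comparisons (edgeR adjusted p = 6.48e-07, 4.49e-06 and 1.3e-05). *Cxcl12* was called higher in CCR2low macrophages alone (adjusted p = 0.0475 by edgeR) and *Ppbp* in none. *Cxcl15* had no count in any replicate. Of the 6 tested receptors, *Cxcr6*, the receptor of CXCL16, was called higher in all 3 comparisons and lower in Ly6Chigh than in Ly6Clow monocytes, at 10.1 CPM in Ly6Chigh, 251 CPM in Ly6Clow and 73.7, 100.7 and 176 CPM in the 3 GFPneg brain populations (group means). *Cxcr3* was called higher in glioma monocytes and CCR2low macrophages and *Cxcr4* in glioma monocytes. These receptors are also expressed by T and NK cells, whose 7 marker genes were all called higher in each of the 3 GFPneg brain populations, with sums of 289.8 to 1755 CPM over the replicates of all 6 brain populations against 16.4 to 161 CPM in Ly6Chigh monocytes.

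Lists of genes regulated by the same pathways were counted beside the members. Of 13 NF-κB-regulated genes 11, 10 and 10 were called higher in glioma monocytes, CCR2high and CCR2low macrophages and 1, *Nfkb1*, lower, and the median log2 fold change was 4.87, 3.90 and 3.70 with genes absent from blood at their bound (5.07, 3.99 and 3.72 as fitted), against 0.12, 0.15 and 0.17 over all genes. Of 13 interferon-regulated genes 10, 7 and 4 were called higher, and 1 lower in CCR2low macrophages, with medians of 3.23, 1.23 and 0.89. The list of 10 dissociation-induced genes had 8, 6 and 6 called higher, with sums of 3477 to 15382 CPM over all 6 brain populations and 627 to 1699 CPM in blood. The microglia list had 7 of 7 called higher in each of the 3 GFPneg populations, with sums of 1680 to 8809 CPM over all 6 brain populations against 58.6 to 285 CPM in blood, although the gate on high CD45 was chosen to leave microglia out. The neutrophil list summed to 84.3 to 1787 CPM in GFPneg glioma monocytes, 21.4 to 387 CPM in CCR2high and 99.1 to 2168 CPM in CCR2low macrophages. In Ly6Chigh monocytes it summed to 374 to 1456 CPM. The part of dissociation, of microglia and of neutrophils in the chemokine levels was not tested.

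The composition of the CXC chemokine mRNA was taken per length of annotated exon (CPM per kilobase), as a scale for genes of unlike length. The annotated exons of *Cxcl1*, *Cxcl2*, *Cxcl3* and *Cxcl10* merged into 1 block spanning the whole gene, introns of spliced transcripts included. Those of the other members lay in 3 to 6 blocks. The shares of these merged members may therefore be understated against the others, and which member is largest depends on these lengths. The 9 members summed to 15.9 to 28.8 CPM per kilobase in Ly6Chigh monocytes and to 686 to 2212 CPM per kilobase in the brain replicates. *Cxcl10* gave the largest mean share in glioma monocytes, 41.2% ± 20.3 (SD, n = 3) in GFPneg and 29.9% ± 10.5 (SD, n = 3) in GFPpos cells. *Cxcl16* gave the largest mean share in all 4 macrophage populations, at 35.3% ± 11.1, 34.3% ± 11.1, 29.4% ± 4.63 and 31.7% ± 8.998 (SD, n = 4) in GFPneg and GFPpos CCR2high and in GFPneg and GFPpos CCR2low macrophages. The *Cxcl10* share ran from 19.4% to 59.7% in GFPneg glioma monocytes and from 10.5% to 22.7% in GFPneg CCR2high macrophages, so the replicates overlapped. These means did not describe mouse 26, in which *Cxcl2* had the largest share in 5 of 6 brain replicates (25.2% to 42.8%) and *Pf4* in the other (23.8%). In the other mice *Cxcl16* was the largest in 13 of 16 brain replicates, among them GFPpos glioma monocytes of mouse 24 (36.3% against 31.6% for *Cxcl10*), and *Cxcl10* in 3. Differences in shares were not tested.

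**Figure D2:**
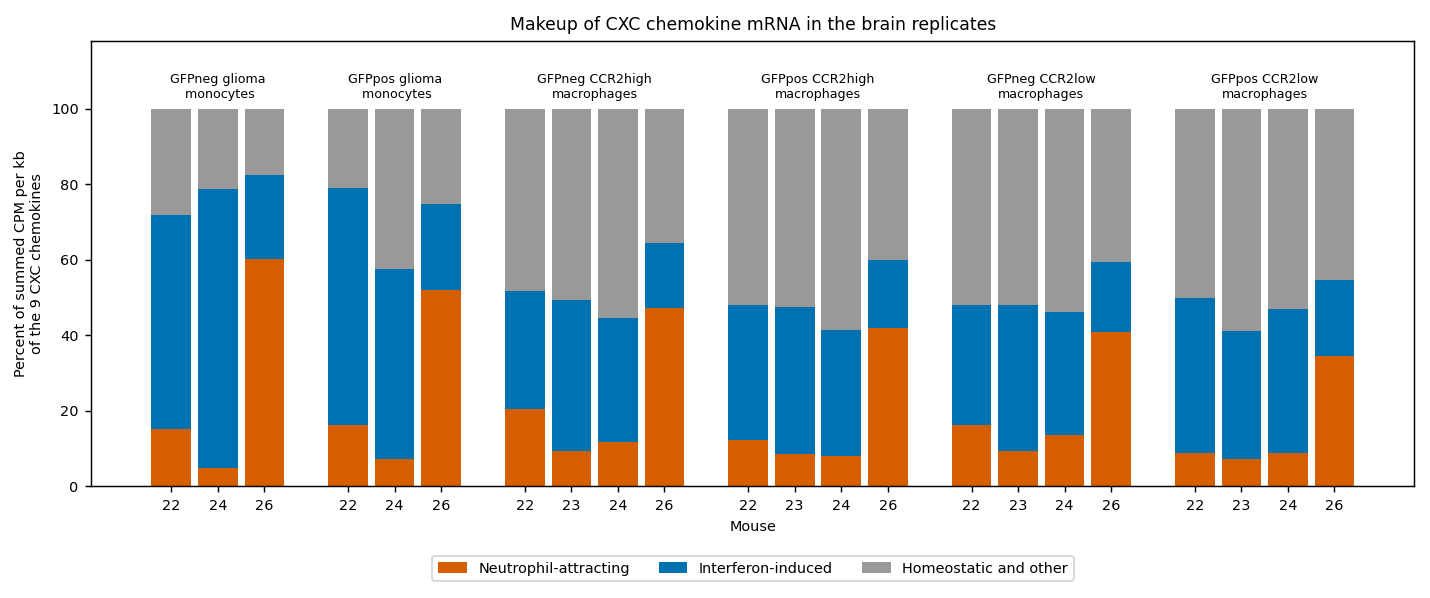
Percent of the summed CPM per kilobase of the 9 CXC chemokines that came from the neutrophil-attracting (*Cxcl1*, *Cxcl2*, *Cxcl3*), interferon-induced (*Cxcl9*, *Cxcl10*) and homeostatic or other members (*Cxcl13*, *Cxcl14*, *Cxcl16*, *Pf4*), 1 bar per brain replicate, grouped by population and named by mouse. In mouse 26 the neutrophil-attracting share was 34.4% to 60.2% and in the other mice 4.93% to 20.3%. The lengths used for *Cxcl1*, *Cxcl2*, *Cxcl3* and *Cxcl10* span the whole gene, which may understate their shares.

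The balance of the groups differed between mouse 26 and the other mice. In the 6 brain replicates of mouse 26 the neutrophil-attracting members made up 34.4% to 60.2% of the sum and the interferon-induced ones 17.3% to 22.7%. In the 16 replicates of mice 22, 23 and 24 these shares were 4.93% to 20.3% and 31.4% to 73.8%. Neither range overlapped between mouse 26 and the others. These shares, and the ratio that follows, rest on the merged exon lengths of *Cxcl1*, *Cxcl2*, *Cxcl3* and *Cxcl10*. The ratio of the first group to the second was 1.71 to 2.73 in mouse 26 and 0.0668 to 0.646 in the others. This is 1 animal, with no replicate of its pattern, so no test was made.

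Gene by gene, mouse 26 was the highest of its population in 6 of 6 brain populations for *Cxcl1*, *Cxcl2*, *Cxcl3* and *Pf4* (4 of 9 members, against 4.53% of all tested genes). *Cxcl1* was 11.1 to 23.7 times the mean of the other mice, *Cxcl2* 3.34 to 6.37 times, *Cxcl3* 6.96 to 77.7 times and *Pf4* 2.97 to 9.73 times. *Cxcl13* was the lowest in mouse 26 in 6 of 6 populations (1 of 9 members, against 2.62% of all genes), with the mean of the other mice 2.02 to 8.22 times as high. *Cxcl10* was the lowest there in 4 of the 6 populations, and *Cxcl16* in 5 and the highest in 1. *Cxcl9* was the lowest in 3 populations and the highest in 1, and *Cxcl14* the lowest in 2 and the highest in 1. The 6 populations came from the same animal and are not independent.

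**Figure D3:**
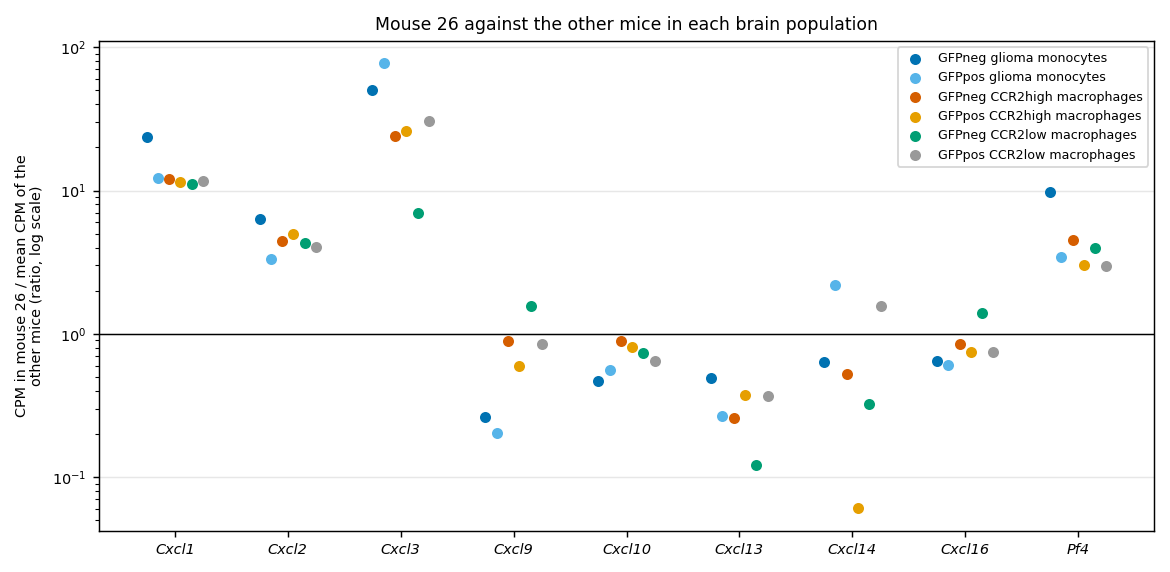
Ratio of the CPM in mouse 26 to the mean CPM of the other mice (log scale) for each member, with 1 point per brain population. *Cxcl1*, *Cxcl2*, *Cxcl3* and *Pf4* lay above 1 in all 6 populations, from 2.97 to 77.7, and *Cxcl10* and *Cxcl13* below 1 in all 6.

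Other lists stood apart in the same mouse. The NF-κB-regulated, border-associated macrophage and endothelial and stromal lists had their highest sum in mouse 26 in 6 of 6 populations, at 6634 to 16214, 611 to 1812 and 228 to 651 CPM, against 2574 to 9264, 84.7 to 566 and 19.9 to 171 CPM in the other mice. The platelet list was highest there in 5 of 6, at 5.23 to 47.7 against 1.65 to 15.7 CPM, with *Ppbp* at 8 to 66 counts. The T and NK cell list was lowest in 6 of 6 populations, at 289.8 to 929 CPM against 468 to 1755 CPM, and the B and plasma cell list in 5 of 6. The interferon-regulated list was lowest in 4 of 6 and highest in none, at 2649 to 7879 CPM against 2978 to 13293 CPM. The CXCL16 sheddases *Adam10* and *Adam17* had their highest sum there in 5 of 6, at 342 to 626 CPM against 302 to 498 CPM. The dissociation-induced list was the highest in 1 and the lowest in 1 of the 6. The part of these in the chemokine levels was not tested.

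Genes that ran most like each member over the 22 brain replicates were found by the Pearson correlation of log2 CPM over 9727 genes, as a description. The replicates share mice, so the correlations carry the difference between mouse 26 and the rest. *Cxcl1* ran most like *Cxcl2* (r = 0.89), *Xist* (0.89) and *C5ar1* (0.88). *Xist* is transcribed from the inactive X chromosome of female cells, and it was at 41.3 to 91.2 CPM in mouse 26 and at 0 to 0.463 CPM in the brain replicates of the other mice. Mouse 26 was thus the only animal with more than 1 *Xist* count in a brain replicate. Its pattern in the members and in the group shares cannot be told apart from a difference by sex. *Cxcl2* ran most like *Cd14* (0.93) and *Cxcl3* (0.89), and *Cxcl3* like *Thbs1* (0.92) and *Hilpda* (0.90). *Pf4* ran most like *Spp1* (0.92), *Mt1* (0.90) and *Ctsl* (0.90), and *Cxcl13* like *Gm4951* (0.89). *Cxcl10* ran most like *Tspo* (0.95), *Mnda* (0.94) and *Ifitm3* (0.94), which were highest in replicates of mice other than 26. *Cxcl9* (*Bloc1s1*, 0.82), *Cxcl14* (*Zdhhc1*, 0.85) and *Cxcl16* (*Mapkapk3*, 0.82) were less like any other gene. Between members, *Cxcl1* and *Cxcl9* had r = -0.35, *Cxcl2* and *Cxcl13* r = -0.72, and *Cxcl9* and *Cxcl10* r = 0.54 (n = 22).

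Differences between the brain populations were the next question, that is, between monocytes and the macrophages they may become. By edgeR 0 of 9 members were called in GFPneg glioma monocytes against GFPneg CCR2high macrophages, where 0.182% of all genes were called, and 1 member reached an unadjusted p under 0.05 (5.38% of all genes). Against GFPneg CCR2low macrophages 0 of 9 passed (1.21% of all genes) and 2 members reached an unadjusted p under 0.05 (8.46%). Between GFPneg CCR2high and CCR2low macrophages 0 of 9 passed (0% of all genes), nor did any at an unadjusted 0.05 (0 of 9, against 2.39%; smallest p of the 9, 0.125), although *Cxcl10* and *Cxcl16* were higher in CCR2high macrophages without overlap (2 of 9, against 1.5% of all genes). DESeq2 called 0, 1 and 0 members (0.925%, 2.37% and 0.0692% of all genes).

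The members with an unadjusted p under 0.05 were *Cxcl10* and *Cxcl13*. *Cxcl10* in GFPneg glioma monocytes, at 968 to 2659 CPM, did not overlap with CCR2high macrophages at 456 to 629 CPM or CCR2low macrophages at 296 to 443 CPM (1 of 9 members was higher in this way in each comparison, against 6.14% and 7.36% of all genes). It was 3.33-fold and 4.56-fold higher by the means (log2 fold change 1.74 ± 0.60 and 2.19 ± 0.61 SE; edgeR adjusted p = 0.45 and 0.0801). It passed the threshold when only the compared populations were fitted (adjusted p = 0.0365 and 0.0087). Against CCR2low macrophages it also passed with DESeq2. *Cxcl11* was called higher in glioma monocytes than in CCR2low macrophages (log2 fold change 2.46 ± 0.58 SE, edgeR adjusted p = 0.0361), and of the 13 interferon-regulated genes 7 were. *Cxcl13* ran the other way, at 23.8 ± 14.2 (SD, n = 3) CPM in glioma monocytes and 87.9 ± 52.3 (SD, n = 4) CPM in CCR2low macrophages (log2 fold change -1.88 ± 0.78 SE, edgeR adjusted p = 0.439), with overlap.

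**Figure D4:**
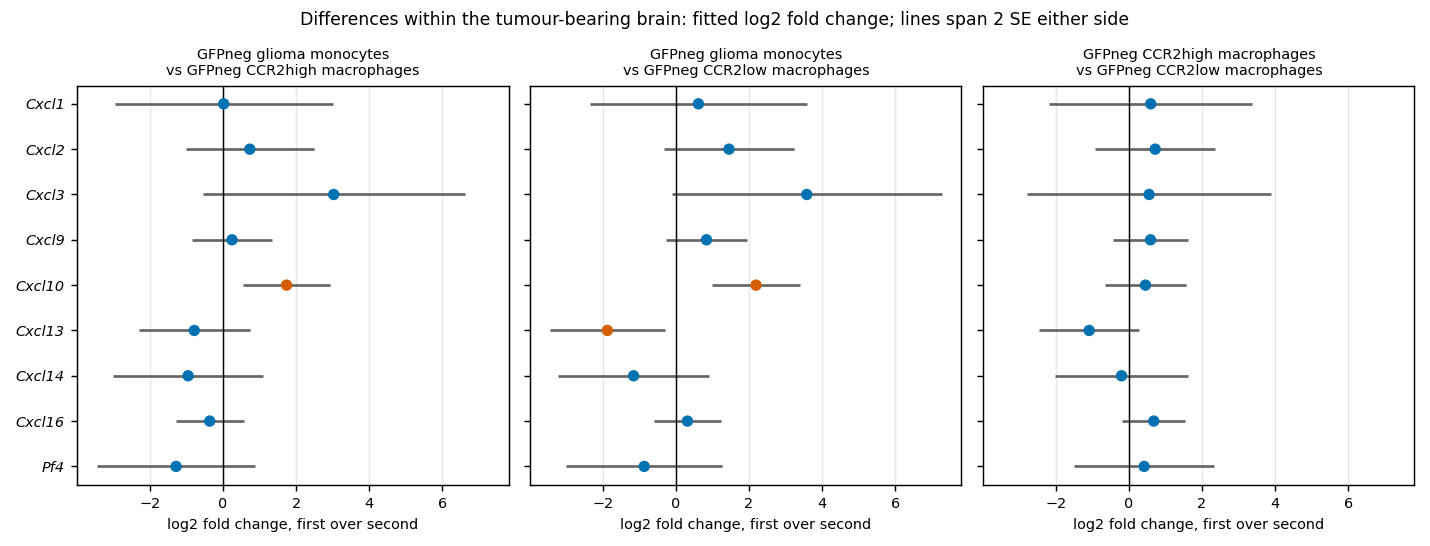
Fitted log2 fold change of each member between GFPneg brain populations, first named over second, with lines spanning 2 standard errors either side. Orange points have an unadjusted p under 0.05 and none of the 9 members passed the adjusted threshold; the intervals of *Cxcl1* and *Cxcl3* are the widest.

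The intervals of the uncalled members were wide. For *Cxcl1* in glioma monocytes against CCR2low macrophages 2 standard errors either side ran from -2.37 to 3.59 on the log2 scale, and for *Cxcl3* from -0.12 to 7.27. For *Cxcl16* they ran from -0.61 to 1.23. These intervals come from the fit without the mouse as a block. With the mouse as a replicate block the log2 fold change of *Cxcl1* between these populations was -0.34 and that of *Cxcl3* 1.37 (edgeR adjusted p = 0.96 and 0.718). *Cxcl2* was higher in GFPneg glioma monocytes than in GFPneg CCR2low macrophages in 3 of 3 mice and higher in CCR2high than in CCR2low macrophages in 4 of 4, with log2 fold changes of 0.89 and 0.60 under the block that were not called (edgeR adjusted p = 0.0847 and 1). In order of mean level *Cxcl2* ran from GFPneg glioma monocytes at 858 ± 960.4 (SD, n = 3) CPM down to GFPpos CCR2low macrophages at 248 ± 215 (SD, n = 4) CPM, and among the 6 brain populations the replicates of neighbours in that order overlapped. *Cxcl16* was highest in CCR2high macrophages, at 1301 ± 234 (SD, n = 4) CPM in GFPneg and 1285 ± 193 (SD, n = 4) CPM in GFPpos cells, against 814 ± 235 (SD, n = 4) and 1036 ± 168 (SD, n = 4) CPM in CCR2low macrophages.

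In GFPpos cells the same comparisons gave 0 of 9 called members between glioma monocytes and CCR2high macrophages (0.0173% of all genes), between glioma monocytes and CCR2low macrophages (0.164%) and between CCR2high and CCR2low macrophages (0%), with 0 members at an unadjusted p under 0.05 by edgeR (5.82%, 6.62% and 1.48% of all genes) and 0 called by DESeq2 (0.242%, 0.623% and 0%). *Cxcl10* was at 1552, 824 and 664 CPM in GFPpos glioma monocytes of mice 22, 24 and 26, and 450.1 to 648 CPM in GFPpos CCR2high and 350.5 to 744 CPM in GFPpos CCR2low macrophages. The glioma monocytes were higher than CCR2high macrophages without overlap (1 of 9 members, against 3.35% of all genes) and overlapped with CCR2low macrophages. The difference between monocytes and CCR2low macrophages was not called as different between GFPpos and GFPneg cells for any member (by edgeR 0 of 9 and 0% of all genes, and 0 of 9 at an unadjusted p under 0.05 against 3.41% of all genes). For *Cxcl10* this difference in log2 fold change was -1.15 ± 0.85 (SE).

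GFP uptake itself was compared within each population, as the mark of contact with tumor membrane. By edgeR 0 of 9 members were called in GFPpos against GFPneg glioma monocytes, CCR2high macrophages or CCR2low macrophages (0% of all genes in each), no member reached an unadjusted p of 0.05 (0 of 9, against 6.39%, 0.597% and 1.59% of all genes) and DESeq2 called 0 (0.164%, 0.00865% and 0.0432%). The largest fitted difference was that of *Cxcl13* in glioma monocytes, at 91.4, 42.9 and 18 CPM in GFPpos and 40.1, 17.1 and 14.2 CPM in GFPneg replicates of mice 22, 24 and 26 (log2 fold change 1.09 ± 0.80 SE, edgeR adjusted p = 0.879). The GFPpos replicate was the higher in each of the 3 mice. *Pf4* was likewise higher in the GFPpos replicate of each mouse, at 54.9, 25.2 and 137 against 12.5, 6.96 and 94.8 CPM (log2 fold change 0.94 ± 1.13 SE, edgeR adjusted p = 0.913). In CCR2high macrophages of mice 22, 23, 24 and 26 *Pf4* was at 72.5, 124, 45.2 and 242 CPM in GFPpos against 56.8, 57.6, 32.8 and 220.2 CPM in GFPneg replicates, and in CCR2low macrophages at 75.9, 124, 45.4 and 243 against 40.7, 41.1, 37.9 and 158 CPM. The GFPpos replicate was thus the higher in 11 of 11 pairs from the same mouse and population, with no call in any population (log2 fold change 0.56 and 0.84 in macrophages with the mouse as a replicate block, edgeR adjusted p = 1 and 1). *Cxcl13* was higher in GFPpos cells in 4 of 4 mice in CCR2high and in 2 of 4 in CCR2low macrophages. *Cxcl3* ran the other way, lower in GFPpos cells in 10 of 11 pairs. These pairs share mice and the direction was seen before it was counted, so no test was made of it. For *Cxcl16* in CCR2high macrophages 2 standard errors either side of the difference ran from -0.87 to 0.84 on the log2 scale, the narrowest interval for GFP among the members in that population.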

How the data were processed

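RNA was measured in sorted populations of glioma-bearing mice by poly-A sequencing from 500 pg of RNA with spike-in RNAs. Read pairs of 75 bases were mapped by the authors with STAR (mm10), PCR duplicates were taken out with Picard 1.8.4, and the authors deposited raw counts per gene from HTSeq in 2 tables with 1 column per library. Whether the counting used strand is not given in the sources used here. Reads on no gene (6.28% to 17.4% of each library) were left out. Of 30 libraries, 1 that failed the study's quality rule was left out and a pair from 1 sample was summed, which gave 28 replicates.

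Counts were scaled by TMM, filtered with filterByExpr and tested with edgeR 4.0.16 (quasi-likelihood, robust, R 4.3.3) in 1 fit over all 8 populations. P-values were adjusted by Benjamini-Hochberg over 11566 genes. DESeq2 1.42.0 was an alternative. The fit was tested on simulated data first. The 9 members were named in every comparison, with fold changes and tests for those called or with an unadjusted p under 0.05, beside fixed lists. The uncalled intervals and the GFP differences given for other members were chosen after their values were seen. Members and lists were chosen with earlier results of these data known. Replicate numbers are mouse numbers, so same-numbered samples come from the same animal. The deviations of 86 same-mouse pairs from their group means had a median correlation of 0.14 (-0.10 to 0.67), against -0.03 for 256 pairs of different mice. The mouse was used as a block in an alternative fit. Counting intervals and the limit of 3 counts for a count of 0 cover counting error only. Alternatives were other scalings and filters, fits to the compared populations only, and leaving out each replicate.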

Additional observations from a re-analysis of the deposited data

Results flagged for a closer look

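Each member was examined in each of the 4 macrophage populations, which have 4 replicates each, for a replicate that stood apart from the others by Dixon's test. Of 36 pairs of member and population 13 held such a replicate. The nominal rate of the test, about 1 in 20, holds for independent and normally distributed values. The test was run on CPM without a log scale, and the pairs share mice and hold correlated members. The 13 are therefore not independent and cannot be set against that rate. Mouse 26 was that replicate in 11 of the 13, each time on the high side.

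*Cxcl1* in mouse 26 stood apart in all 4 macrophage populations, at 611 CPM in GFPneg CCR2high, 499 CPM in GFPpos CCR2high, 399.8 CPM in GFPneg CCR2low and 383 CPM in GFPpos CCR2low macrophages. *Cxcl2* in mouse 26 stood apart in GFPpos cells, at 932 CPM in CCR2high and 569 CPM in CCR2low macrophages. *Cxcl3* in mouse 26 stood apart at 49.9 CPM in GFPneg CCR2high, 37.0 CPM in GFPpos CCR2high and 26.2 CPM in GFPpos CCR2low macrophages. *Pf4* in mouse 26 stood apart in GFPneg cells, at 220.2 CPM in CCR2high and 158 CPM in CCR2low macrophages.

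The other replicates that stood apart were both from mouse 22. *Cxcl14* was at 32.5 CPM in GFPneg CCR2low macrophages, and *Cxcl16* was at 1649.9 CPM in GFPneg CCR2high macrophages.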

How the results depend on the processing

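Of 218 counts of called members under the alternatives 205 were within 1.5 times the count reported and 13 were not. A count of 0 that stayed at 0 was included in the 205. No member was called in any comparison within the brain or by GFP, so the 205 says little about the comparisons that had calls. Of 505 values of single members 449 kept their direction and side of the threshold, 38 lost the call, 18 gained it and 0 turned direction. For Ly6Chigh against Ly6Clow monocytes, where 2 members were called, 1 was called with spike-in scaling, 1 with a filter of at least 1 count and 0 when only the compared populations were fitted, while DESeq2 called 5 (11.8% of all genes). Leaving out a replicate gave 1 to 5, with 5 without the Ly6Clow replicate of mouse 24 and 1 without the Ly6Chigh replicate of mouse 23 or 24 or the Ly6Clow replicate of mouse 22. For glioma monocytes against Ly6Chigh monocytes leaving out a replicate gave 5 to 9 called members, with 5 without the Ly6Chigh replicate of mouse 24, and for both macrophage populations it gave 7 to 8. *Cxcl10* made the count 1 in glioma monocytes against CCR2high and against CCR2low macrophages when only these were fitted, and in the latter with DESeq2, which also gave 1. In all comparisons within the brain or by GFP, leaving out a replicate gave 0 called members. The cause of these changes was not tested.

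With the mouse as a replicate block 4 members were called in Ly6Chigh against Ly6Clow monocytes (*Cxcl1*, *Cxcl10*, *Cxcl13* and *Pf4*), and *Cxcl3* was called in both macrophage populations against Ly6Chigh monocytes. The block changed no other call of a member. Over all genes, Ly6Chigh against Ly6Clow monocytes gave 649 calls, 224 to 2444 when a replicate was left out and 0 to 1369 under the other alternatives. Glioma monocytes, CCR2high and CCR2low macrophages against Ly6Chigh monocytes gave 398 to 2109, 523 to 2738 and 591 to 2979 calls under these. A filter of 10 counts in every library left no member to test. Leaving out mouse 26 as a whole was chosen after seeing the data.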

Other observations

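*Cxcl5*, another neutrophil attractant of the same gene cluster, had too few counts for a test. It had 0 counts in 15 of the 16 brain replicates of mice 22, 23 and 24, and 5 counts in the other. In mouse 26 it had 0 to 9 counts per replicate and was the highest of its population in 3 of 6.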
